A study of Drosophila melanogaster with 4 samples.

Results

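The stretches described here are runs of at least 50 kb on the chromosome arms of Drosophila melanogaster in which no cluster of trimethylated lysine 36 of histone H3 (H3K36me3) was listed. They were found in the authors' 3 deposited lists of enriched clusters, which are a list for each of 2 precipitated libraries and a combined list. All clusters that shared at least 1 bp across the lists were joined into intervals, and the sequence between neighbouring intervals, or from a sequence end to the nearest interval, was taken as a cluster-free run. Of 3881 such runs on 2L, 2R, 3L, 3R, X and 4, 504 were 50 kb or longer and are called stretches. The stretches were thus chosen by the measured positions of clusters, so their number, length and placement, and the values of the clusters beside them, are given as a description with no test.

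Chromatin came from nuclei of fly heads, collected by sieving from adults of mixed stage held in population cages. All 4 libraries were of the wild-type strain Oregon-R (Oregon-R-modENCODE), with no treatment and no other genotype. In 2 of them the chromatin was precipitated with an antibody against H3K36me3, and the other 2 were input chromatin. The lists pool all cell types of the head, and the labels do not give the sexes. Nothing there says that the replicates were separate collections of flies. An SD over n = 2 therefore measures how far these libraries lie apart, and that distance may be technical.

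H3K36me3 is placed on nucleosomes by the methyltransferase Set2, which travels with elongating RNA polymerase II, and it is therefore a mark of the bodies of genes that are being transcribed, richest toward their 3′ ends. Sequence between genes, and genes that are silent in a tissue, usually lack it. A list of enriched clusters records where the mark passed the authors' threshold, and a place with no cluster can hold the mark below that threshold, in few of the cells, or in sequence that short reads cannot be placed in. Read depth, mappability and assembly gaps were not given by the lists, so the part of these in any stretch was not tested. All coordinates follow FlyBase release 5. The gene table at hand followed release 6, so no gene is named for any stretch and the head origin could not be checked against marker genes.

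The stretches held more sequence than the marked intervals did. The 504 stretches summed to 63.3 Mb, or 52.6% of the 120.4 Mb of the 6 sequences, while the joined intervals, 3879 in number, covered 21.1%. Stretches were 13.0% of the cluster-free runs but held 66.7% of the cluster-free sequence. The remaining 3377 runs had a median length of 4.21 kb and together made up 26.3% of the 6 sequences. Cluster-free sequence was thus unevenly divided, and 50% of it lay in runs of 91.2 kb or longer.

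**Figure D1:**
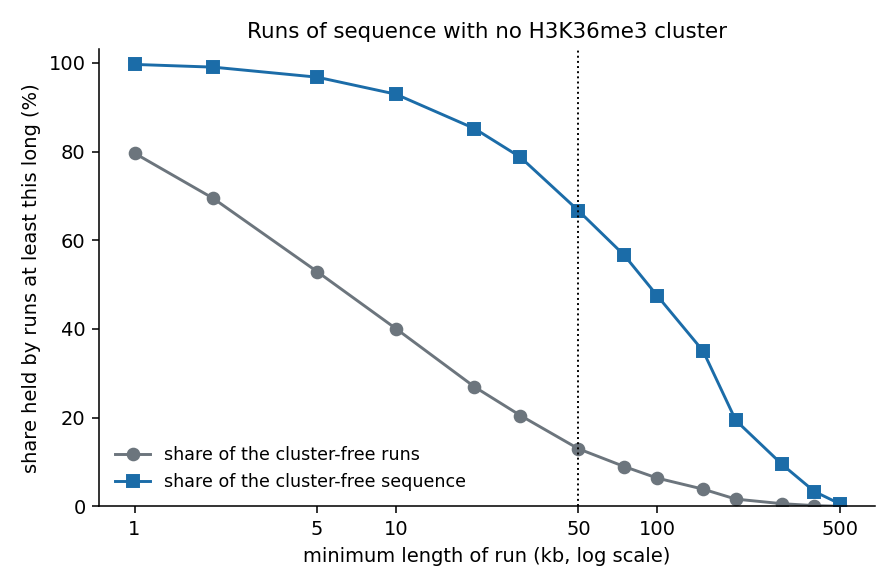
For each minimum length of a cluster-free run (kb, log axis), the plot gives the percent of all 3881 runs and the percent of all cluster-free sequence held by runs at least that long. At the dotted line of 50 kb the grey circles stand at 13.0% of the runs and the blue squares at 66.7% of the sequence.

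Stretch lengths ran from 50.0 kb to 561 kb, with a median of 98.7 kb and a mean of 126 kb ± 78.9 (SD over 504 stretches). Of the 504, 256 were from 50 to 100 kb and held 28.7% of the stretch length. A further 184 were from 100 to 200 kb and held 42.2%. There were 40 from 200 to 300 kb, with 14.8%, and 24 of 300 kb or longer, with 14.3%. The limit of 50 kb did not fall in a gap between short and long runs. The 3 shortest stretches were X 10304183 to 10354187 (50005 bp), 3R 6534425 to 6584531 (50107 bp) and 2R 22851 to 72995 (50145 bp). The 3 longest runs left out were 3L 3842807 to 3892625 (49819 bp), 3R 27505026 to 27554601 (49576 bp) and X 6492345 to 6541841 (49497 bp).

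Both replicates gave nearly the same stretches. Taken alone, the list of replicate 1 had 496 runs of 50 kb or longer over 64.8 Mb, that of replicate 2 had 506 over 64.7 Mb, and the combined list had 504 over 63.3 Mb. The replicates averaged 53.8% ± 0.0309 (SD, n = 2) of the 6 sequences, somewhat more than the joined lists, because joining can only add clusters. By the rule every stretch lies inside a single run of each list. That run was at most 1 kb longer than the stretch for 398 of the 504 stretches (79.0%) in replicate 1 and for 421 (83.5%) in replicate 2. In the combined list that run was at most 1 kb longer for 503.

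Run lengths differed between the replicates by a median of 144 bp, and by 1 kb or less for 437 of the 504 stretches (86.7%). These include stretches that neither replicate had alone, because only the combined list split a longer run there. An example is 2L 4736157 to 4794129 (58.0 kb), which lay in runs of 264 kb in both replicates. At 39 stretches the replicate runs differed by more than 10 kb. The 3L stretch 18453340 to 18611264 (158 kb), which was chosen after its values were seen, differed most. Its run was 502 kb long in replicate 1 and 158 kb in replicate 2. Between this stretch and the next toward the left end, 3L 18109737 to 18451238 (342 kb), lay a single cluster of 2.10 kb in replicate 2, with a score of 0.604, and replicate 1 had none there. A narrow cluster called in only 1 replicate thus split what was a single run in the other.

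The clusters inside such split runs were narrow, and most had low scores. The score is the authors' own enrichment value, and neither its scale nor its log base is known. In replicate 1, 17 runs of 50 kb or longer held 2 stretches each. The clusters of replicate 2 that lay inside them, whether or not at the split itself, numbered 11, with a median width of 1.58 kb and scores from 0.379 to 0.661. Those of the combined list numbered 23, with a median score of 0.403 and a range from 0.190 to 1.11. In replicate 2, 7 runs held 2 stretches, and the clusters that lay inside them were found in the combined list, where 10 had a median width of 1.40 kb and scores from 0.268 to 1.11. A further 9 runs in each replicate were broken by the other lists into pieces shorter than 50 kb. For comparison, all clusters of the 6 sequences had a median score of 1.61 in the combined list, 1.71 in replicate 1 and 1.68 in replicate 2. However, each cluster inside a split run lay where the replicate that held the run had none. Of all 3879 intervals, 91.8% had a cluster in both replicates. The low scores may thus follow from how these clusters were picked, which was not tested.

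The 5 long arms held from 91 to 111 stretches each, and chromosome 4 held 2. Stretches made up 58.4% of 2L (101 stretches), 56.3% of 3L (106), 54.1% of X (93), 50.6% of 3R (111) and 45.9% of 2R (91). On chromosome 4, a short chromosome that is largely heterochromatic but carries active genes, they made up 10.4%. That share rests on few runs, and it was 0% at a length limit of 100 kb, 24.5% at 25 kb and 40.8% when only the upper 50% of each list by score was kept.

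Each replicate alone gave the same order of arms at the limit of 50 kb. At 100 kb X (41.0%) came before 3L (40.7%), and at 25 kb 3R (64.9%) came before X (64.4%).

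Replicate values lay close together on the long arms. The share was 59.5% and 59.3% of 2L in replicates 1 and 2, which averaged 59.4% ± 0.12 (SD, n = 2). It was 57.8% and 57.2% of 3L (mean 57.5% ± 0.434), and 55.1% and 55.8% of X (mean 55.5% ± 0.532). For 3R the values were 51.6% and 51.7% (mean 51.7% ± 0.0736), and for 2R 47.0% in both (mean 47.0% ± 0.0162). Chromosome 4 gave 15.3% and 10.4% (mean 12.9% ± 3.44). No 2 neighbouring arms in this order overlapped in their replicate values. Differences between arms thus exceeded the spread between these 2 libraries, although stretches also varied along every arm.

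**Figure D2:**
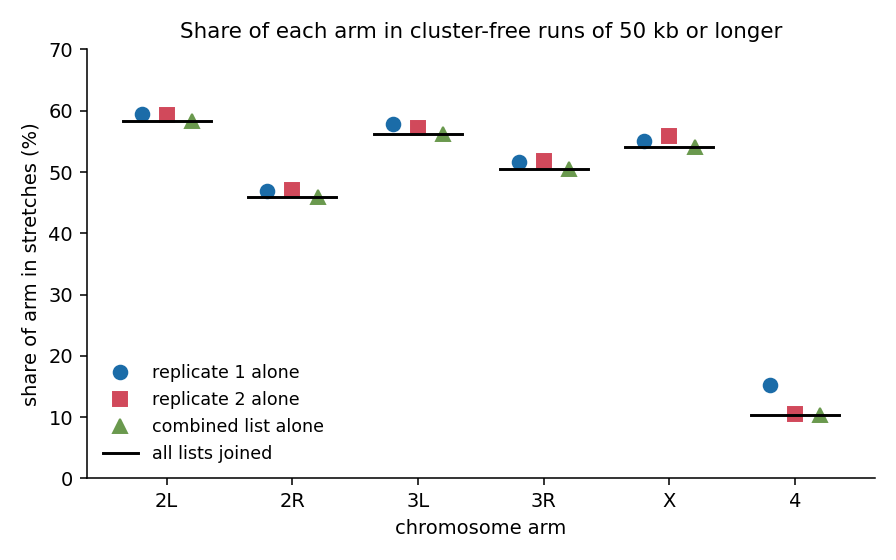
Percent of each arm in cluster-free runs of 50 kb or longer, with a circle for replicate 1, a square for replicate 2, a triangle for the combined list and a line for all lists joined. On each long arm the points lie within 2 points of each other, 2R is lowest of the 5 at 45.9% and chromosome 4 stands at 10.4%.

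The low share of 2R went with shorter stretches rather than with fewer of them per Mb. This did not hold for 3R, which had a lower share than 3L but a longer median and fewer stretches per Mb. The number per Mb was between 3.98 on 3R and 4.39 on 2L over the long arms, with 4.30 on 2R. Median lengths were 114 kb on 2L, 108 kb on X, 105 kb on 3R, 98.9 kb on 3L and 77.8 kb on 2R. In the replicates alone, the median was 84.6 and 86.2 kb on 2R, against 100.2 and 100.4 kb on 3L, the next shortest. Of the 91 stretches on 2R, 28 (30.8%) were 100 kb or longer. On the other long arms the share was 57.0% on X, 54.5% on 2L, 54.1% on 3R and 49.1% on 3L. Stretches of 300 kb or longer numbered 7 on 3L, 6 on X, 5 on 2L, 4 on 3R and 2 on 2R.

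**Figure D3:**
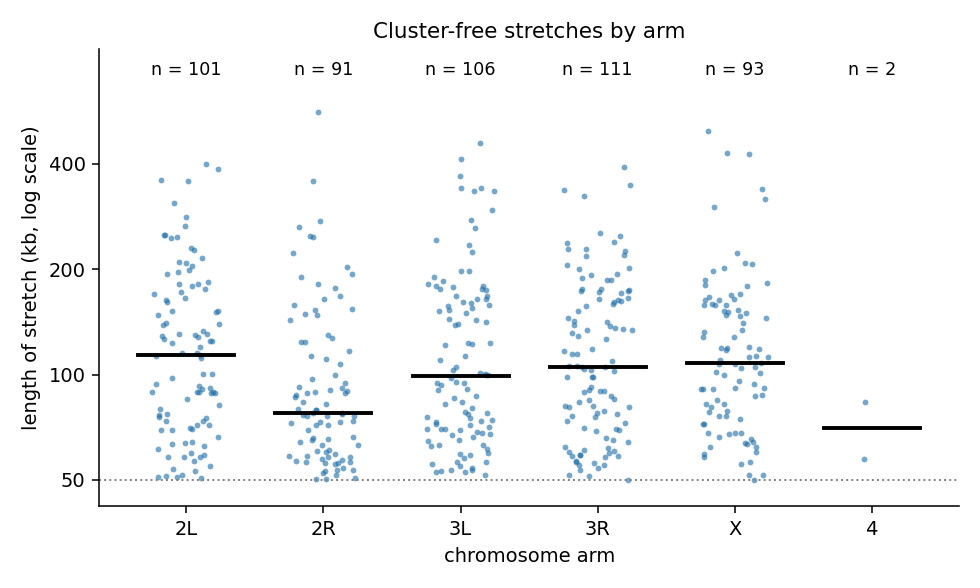
Each point is a stretch, placed by its length (kb, log axis) on its arm, and black bars are medians over the n stretches printed above. The bar of 2R stands at 77.8 kb, below those of the other long arms at 98.9 to 114 kb, while the highest point of all, 561 kb, is also on 2R.

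The longest stretch was 2R 15562443 to 16123821, although 2R had the lowest median length of the 5 long arms. It spanned 561 kb, and the runs that held it were 561 kb in replicate 1 and 562 kb in replicate 2, a mean of 562 kb ± 0.139 (SD, n = 2). The second was X 20396301 to 20894165 with 498 kb, where the replicate runs were 499 kb in both. Both replicates had a cluster in the interval on either side of each of these stretches. The runs of the combined list were as long as the stretches, at 561 and 498 kb, and those of the replicates were slightly longer. At the left of the 2R stretch stood a cluster of 4.53 kb in replicate 1 and 4.50 kb in replicate 2, with scores of 1.96 and 2.17. At its right the clusters were 3.72 and 3.55 kb wide, with scores of 1.53 and 1.21.

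The next in length lay at or near the inner ends of arms in several cases. On 3L, whose centromere lies beyond its last base, 24071059 to 24531785 (461 kb) ended 11.8 kb from the end of the sequence. Both replicate runs were longer there, at 501 kb each, because its left bound was a cluster of the combined list only, 1.25 kb wide with a score of 0.370. On X, 21945117 to 22374989 (430 kb) ended 47.8 kb from the centromere-side end, and its right bound was likewise called in the combined list only. The replicate runs there were 437 kb in both. In the middle of X lay 11925505 to 12352351 (427 kb), with replicate runs of 427 kb in both.

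Ranks 6 to 10 were on 3L, 2L and 3R. They were 3L 22291851 to 22705717 (414 kb), 2L 15771427 to 16172124 (401 kb), 3R 2486258 to 2878706 (392 kb), 2L 14619353 to 15005155 (386 kb) and 3L 23338853 to 23708210 (369 kb). For 4 of them the replicate runs had an SD of 0.281 kb or less. The 3R stretch was the exception, with runs of 393 kb in replicate 1 and 402 kb in replicate 2 (mean 397 kb ± 6.92), since its right bound was a cluster called in replicate 1 and in the combined list but not in replicate 2. That cluster was 2.23 kb wide in replicate 1, with a score of 0.689. Of these 10 longest stretches, 7 were thus bounded on both sides by clusters called in both replicates.

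Chromosome 4 had short stretches only. They were 4 399193 to 456487 (57.3 kb) and 4 714373 to 797606 (83.2 kb). The replicate runs measured 57.4 and 57.7 kb for the first and 83.4 and 83.3 kb for the second. Replicate 1 had 1 more run of 50 kb or longer, which the other lists broke. The block between the stretches was 258 kb long and held 16 intervals that covered 60.9% of it.

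Stretches were spread along whole arms rather than gathered in a single part. Each arm was divided into 10 equal parts, numbered from its centromere side. Over the 5 long arms the mean share of a part in stretches lay between 45.0% and 63.7%. The highest mean was that of part 1, nearest the centromere, 63.7% ± 16.0 (SD over 5 arms). It rested on 3L (86.0%) and X (75.2%), while 2L (54.0%), 3R (52.9%) and 2R (50.3%) lay near the 52.6% over all 6 sequences. Part 2 had the lowest mean, 45.0% ± 10.9, and part 10, at the telomere side, had 49.7% ± 4.86.

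Arms differed in where their stretches were most dense. On 3L and X part 1 had the highest share, with 86.0% and 75.2%. The replicates alone averaged 87.9% ± 0.101 and 76.9% ± 0.130 there (each SD, n = 2). On 2L it was part 4 with 84.7% (replicates alone 85.5% ± 0.654, SD, n = 2), and parts 3 and 5 beside it had 71.8% and 71.3%. On 2R it was part 8 with 64.6%, where the longest stretch lies, and on 3R part 9 with 63.0%. The lowest share on the long arms was 28.5% in part 3 of X (replicates alone 30.0% ± 1.59, SD, n = 2). In chromosome 4 the stretches fell in parts 3, 4 and 6, and the other parts had 0%.

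**Figure D4:**
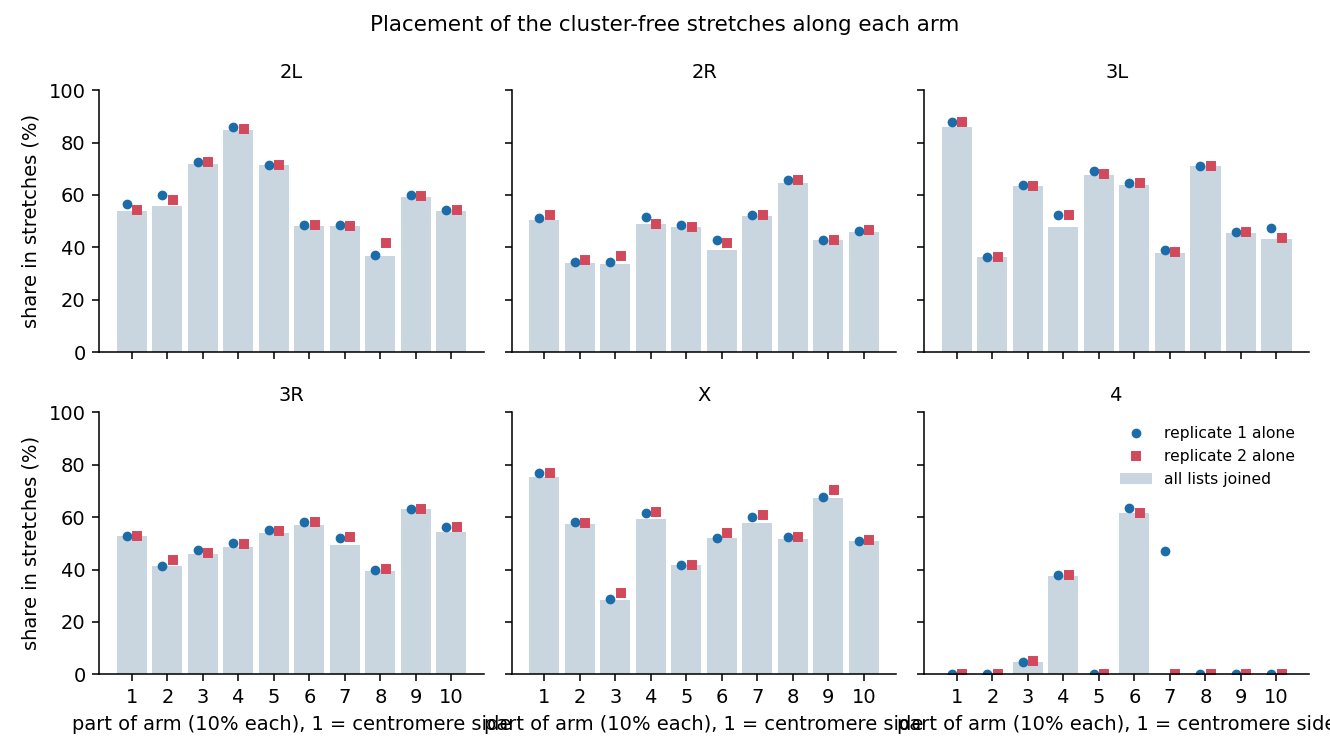
Bars give the percent of each part of an arm (10% of its length) in stretches, from the centromere side (1) to the telomere side (10), and points give the same for each replicate alone. Bars reach 86.0% in part 1 of 3L and 84.7% in part 4 of 2L. Replicate points lie furthest apart in part 7 of chromosome 4, at 46.9% and 0%. On the long arms they lie furthest apart in part 8 of 2L, at 37.0% and 41.7%.

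In windows of 1 Mb along the long arms, 119 in number, the share in stretches ran from 21.0% to 91.8% with a median of 51.7%. It exceeded 50% in 64 windows. Shares of 75% or more were found in 10 windows, the highest being 91.8% on 2L, in the window that starts at 14 Mb, and 89.7% on 3L, in that starting at 10 Mb. Under 25% were 2 windows, that of 2R starting at 3 Mb (21.0%) and that of 3R starting at 11 Mb (23.9%). The last windows of 3L (0.544 Mb) and 3R (0.905 Mb) were shorter than 1 Mb. That of 3L, at 89.0%, is among those of 75% or more. Shorter remainders at the right ends of 2L, 2R and X were left out.

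Sequence ends were mostly not free of clusters over long distances. Only the left end of 3L was a stretch, 3L 1 to 141516 (142 kb), on the telomere side. Its replicate runs were 142 kb in both, and the cluster that bounded it was 4.34 kb wide in replicate 1 and 4.52 kb in replicate 2, with scores of 1.39 and 1.57. The right end of 3L had no cluster-free run at all, since an interval reached its last base. Runs at the other ends were from 0.355 kb on the left of X to 39.7 kb on the right of 2L. Within the last 1 Mb on the centromere side, stretches held 90.2% of 3L, 79.5% of X, 68.5% of 2L, 55.8% of 2R and 40.2% of 3R. On the telomere side the values were 49.6%, 61.0%, 42.8%, 47.2% and 55.3% in the same order of arms.

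Marked sequence lay in blocks between stretches. There were 498 such blocks between neighbouring stretches of an arm, with a median length of 68.0 kb and a median of 5 intervals. The largest numbers were found in 121 blocks of over 10 intervals (24.3% of blocks), which together held 2203 of the 3879 intervals and had a median length of 254 kb. Intervals covered a median of 42.4% of the length of these blocks. Outside the stretches, which have none by definition, intervals covered 44.5% of the sequence, at 68.0 intervals per Mb.

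The longest parts of the arms with no stretch were X 16159142 to 16869983 (711 kb, 50 intervals), 3R 19505464 to 20185878 (680 kb, 34 intervals) and 2L 6412343 to 7066196 (654 kb, 37 intervals). On chromosome 4 the part from 797607 to the right end, 554 kb long, had 36 intervals over 56.7% of its length. For 3L and 2R the longest such parts were 531 kb and 519 kb.

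Some neighbouring stretches were parted by a single interval. This was so at 73 places, which linked 136 of the 504 stretches (27.0%, 17.3 Mb) into 63 chains. Chains of 2 stretches numbered 54, chains of 3 numbered 8, and 1 chain had 4. On 2L there were 17 chains, on 3L 13, on 3R and X 12 each, on 2R 9 and on chromosome 4 none.

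The chain of 4 was X 9576423 to 9964703, with a span of 388 kb that was 97.7% cluster-free. The longest chain was 3L 9967945 to 10623953, where 3 stretches of 243, 234 and 167 kb spanned 656 kb and only 11.7 kb was in intervals. On the other long arms, the chains with most stretches, and the longest span where several had as many, were 2L 15274873 to 15727515 (3 stretches, 453 kb), 2R 130829 to 334685 (3 stretches, 204 kb) and 3R 2285813 to 2878706 (2 stretches, 593 kb). The 3R chain included the longest stretch of that arm.

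These lone intervals varied widely in width and score. The narrowest was 2R 260924 to 261924 (1.00 kb), called in the combined list only, with a score of 1.11. The widest was X 4424916 to 4448694 (23.8 kb), which was a single cluster of 23.7 kb in replicate 2 and had clusters of up to 14.1 kb in replicate 1. Its highest scores were 1.99 in replicate 1 and 1.88 in replicate 2 (mean 1.94 ± 0.0788, SD, n = 2). Stretches of 159 and 72.4 kb lay on its sides. Of the 73, 58 (79.5%) had a cluster in both replicates, 10 in replicate 2 but not replicate 1, and 5 in the combined list only. None had one in replicate 1 without one in replicate 2. Over all 3879 intervals, 3559 (91.8%) had a cluster in both replicates and 174 in the combined list only. A further 88 had one in replicate 2 but not replicate 1, and 58 in replicate 1 but not replicate 2. The last class was thus rare among all intervals, so its absence among the 73 says little.

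Clusters inside the lone intervals are called lone clusters here. Some lone intervals held 2 clusters of a list, so clusters outnumber intervals. In replicate 2, 25.7% of the 70 lone clusters were narrower than 2 kb, against 7.12% of all its 3836 clusters on the 6 sequences. Their median score was 1.36 against 1.68. Replicate 1 had 60 lone clusters, of which 15.0% were under 2 kb, against 7.61% of 3799, and the median scores were 1.63 and 1.71. Scores below 1 were found in 26.7% of the lone clusters of replicate 1 and 35.7% of those of replicate 2, against 19.3% and 19.9% of all clusters. In contrast, clusters of 8 kb or wider made up 26.7% in replicate 1 and 21.4% in replicate 2, against 25.4% and 24.7% overall. Intervals called in replicate 2 but not replicate 1 were 13.7% of the lone intervals and 2.27% of all intervals. At these lone intervals the replicate 2 clusters were 1.31 to 2.10 kb wide, so they add to its narrow class.

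Clusters that bordered stretches differed little from the others in their medians. In replicate 1, 859 of 3799 clusters (22.6%) bordered a stretch, and in replicate 2, 872 of 3836 (22.7%). Their median width was 4.67 kb in both, against 5.07 and 5.10 kb for clusters that bordered none. Quartiles were 3.03 and 7.53 kb for the bordering clusters of replicate 1 and 3.22 and 8.22 kb for its others, so the ranges largely overlapped. Median scores were 1.66 and 1.63 beside stretches in replicates 1 and 2, against 1.72 and 1.70. Scores below 1 were found in 22.7% and 24.2% of the bordering clusters and in 18.4% and 18.6% of the others.

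At like width, median scores beside stretches were lower in both replicates from 2 to 4 kb and at 8 kb or wider. In the other width classes they lay closer to those elsewhere. For clusters from 4 to 8 kb the median was 1.82 in replicate 1 both beside stretches (328 clusters) and elsewhere (1087), and 1.79 and 1.83 in replicate 2. For those from 2 to 4 kb it was 1.13 against 1.20 in replicate 1 and 1.06 against 1.19 in replicate 2. For those of 8 kb or wider it was 1.99 against 2.07, and 1.94 against 2.04. Under 2 kb it was 0.554 against 0.553, and 0.513 against 0.507. Scores come from the same lists as the rule, so these differences were not tested.

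Borders of longer and shorter stretches had similar medians. Beside stretches of 50 to 100 kb the median width of the bordering cluster was 4.82 kb in replicate 1 and 4.70 kb in replicate 2. Beside those of 200 kb or longer it was 4.48 and 4.67 kb. Median scores were 1.63 and 1.59 in the shorter class and 1.65 and 1.63 in the longer class. Beside cluster-free runs under 5 kb, which lie within marked blocks, median widths were 5.08 and 5.03 kb and median scores 1.74 and 1.72.

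**Figure D5:**
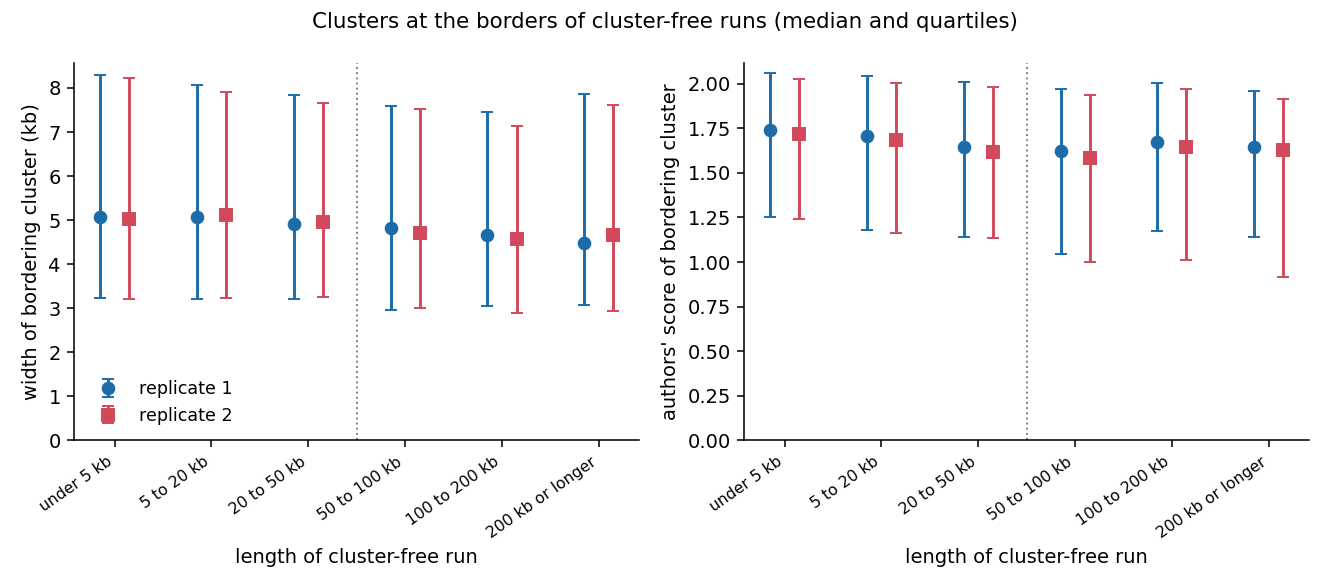
Width (kb) and authors' score of the clusters at the borders of cluster-free runs, by length of run, with points at the median and bars from the lower to the upper quartile in replicates 1 and 2. Runs right of the dotted line are the stretches, and their medians of 4.48 to 4.82 kb lie within the quartiles of every shorter class.

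Very wide and very high clusters also stood directly beside stretches. The widest was X 1750640 to 1791386 in the combined list (40.7 kb), with widths of 40.6 kb in both replicates and scores of 2.27 and 2.20. It lay at the right of X 1682435 to 1750639, a stretch of 68.2 kb. The highest-scoring was 2L 10858342 to 10863422 in the combined list, with scores of 2.66 in replicate 1 and 2.59 in replicate 2. It lay at the left of 2L 10863423 to 10964062, a stretch of 101 kb.

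Most borders were called in both replicates. The stretches were bordered by 934 intervals, of which 841 (90.0%) had a cluster in both replicates, 16 in replicate 1 but not 2, 29 in replicate 2 but not 1, and 48 (5.14%) in the combined list only. Among the 2945 intervals that bordered no stretch, 92.3% had a cluster in both and 4.28% were in the combined list only. Both sides were called in both replicates for 404 of the 504 stretches. At the 899 bounds with a cluster in both replicates, counted once for each stretch, the replicate edges lay a median of 70 bp apart, with a 95th percentile of 397 bp.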

How the data were processed

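H3K36me3 ChIP-seq of Oregon-R fly heads was analysed from cluster lists. Per the file headers the lists are in general feature format version 3 with positions on FlyBase release 5. The score of each cluster is the authors' deposited value, of unknown scale. The submitters' processing notes name Bowtie 0.12.7 without saying what it did. How clusters were called, at which threshold and depth, and how replicates were combined is not stated there, so no counting interval was computed. Each replicate list is recorded under its own precipitated library. The combined list is recorded under no sample and is named as a replicate set. No list of the 2 input libraries was used.

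Clusters marked as enriched were joined across lists with Python 3.11.15 and pandas 2.3.3. The finder was first tested on simulated lists. Their clusters had the same edges in every list, so the joining of clusters with differing edges was not tested. The limit of 50 kb, the groupings by length, width and part of arm, and the positions named (longest, nearest the limit, at sequence ends, chains with most stretches, widest and narrowest lone intervals, extreme bordering clusters) were chosen with earlier results of these data known. Arms were oriented by the known side of their centromere. No test was run. Alternatives were each list alone, the replicate lists joined, the upper 50% by score, no clusters under 2 kb, limits of 25 and 100 kb, no sequence ends, and a reciprocal overlap of 50%.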

Additional observations from a re-analysis of the deposited data

Results flagged for a closer look

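Clusters were also listed on sequences outside the 6 described above, without an input list beside them. The combined list held 125 there, replicate 1 held 91 and replicate 2 held 87, on U and the 6 heterochromatic sequences. By the same rule the heterochromatic sequences had 28 stretches of 50 kb or longer, which made up 90.6% of their length, and the longest was 1679 kb on 3RHet. These sequences are assembled from repeats and scaffolds, and mappability was not measured.

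A region listed as depleted in the combined list, 2R 1523140 to 1524824, with a score of -0.00471, lay in no stretch. The nearest stretch was 33.6 kb away.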

How the results depend on the processing

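The number of stretches stayed between 496 and 553 under every list and cluster filter tried, and only the length limit moved it by over 1.5 times, to 248 at 100 kb and 904 at 25 kb. The share of the 6 sequences in stretches was 52.6% and ran from 53.75% to 53.80% with the list of a single replicate, which leaves out the combined list as well as the other replicate. It was 53.3% with the replicate lists joined, 54.1% without clusters under 2 kb, 52.5% without sequence ends, 37.5% and 64.6% at limits of 100 and 25 kb, and 69.6% when only the upper 50% by score was kept. Part 1 of the long arms, at the centromere side, at 63.7%, ran from 64.9% to 65.0% with a single replicate's list, and was 64.5%, 64.8%, 53.1%, 73.1% and 82.1% with joined replicates, no clusters under 2 kb, limits of 100 and 25 kb and the upper 50% by score. The median width of bordering intervals, 4.74 kb, ran from 4.72 to 4.77 kb with a single replicate's list and was 4.87, 5.25, 4.66, 4.99 and 7.36 kb in the same order. Lone intervals, 73 in number, ran from 62 to 72 with a single replicate's list and became 130 with the upper 50% by score, 19 at 100 kb and 215 at 25 kb. A reciprocal overlap of 50% found 483 of the 504 stretches in both replicates. The higher share under a score filter follows from leaving out clusters, so the amount of stretch sequence depends on the authors' threshold, and the unknown depth limits what a missing cluster shows. No paired analysis was possible because the lists at hand cover the precipitated libraries only, with none for the inputs. No result comes from a test.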
